A study of Mus musculus with 24 samples.

Results

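Both siRNA sets that the study used to deplete the long noncoding RNA *mPINC* were compared directly with each other in undifferentiated HC11 cells, an epithelial line from mouse mammary gland. Of the 24 arrays of the study, 4 were chosen by their sample titles, 2 of cells transfected with siPINC1.0/1.6 and 2 of cells transfected with siPINC. siPINC1.0/1.6 combined an siRNA against *mPINC1.0* with one against *mPINC1.6* and was designed to spare the shorter DCR2 splice form. siPINC combined the same *mPINC1.0* siRNA with one that the methods list against DCR2, the pair being designed to hit all splice forms, DCR2 included. All cells were transfected at 10 nM with Lipofectamine RNAiMAX and received no lactogenic hormones (−LH). In the same 6-array experiment, 2 arrays of cells given the negative control siRNA siNEG showed the control level. The same siRNAs were used in cells treated with hydrocortisone, insulin and prolactin (+LH), with 3 arrays a group. The study describes the arrays as biological replicates, and the labels do not say whether they came from separate cultures, so the spread may be partly technical. The sets differ in 1 siRNA, so that loss of DCR2 and any other effect of the exchanged siRNA cannot be told apart.

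Mammary alveolar cells form in pregnancy, secrete milk in lactation and mostly die in involution, and *mPINC* is known as an RNA of alveolar cells of the pregnant and involuting gland that associates with the chromatin-modifying complex PRC2. HC11 cells keep basal and luminal features and make milk proteins when given lactogenic hormones. Mammary epithelial cells also make chemokines, cytokines and acute phase proteins, genes known to respond together to inflammatory stimuli.

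Levels are given as log2 signal, the log2 of the scanner software's processed signal after quantile normalization across arrays. A probe is called well above background where that software marked it so. On the 6 arrays, 26732 to 28409 of 55681 probes were well above background, and the SD over probes of the log2 difference between the 2 arrays of a group was between 0.2 and 0.241. The 6 arrays lay on 1 slide with each group in its own column, so group and slide column cannot be told apart, and the small number of arrays limits the precision of every value. All 8 markers of mammary epithelium (*Epcam*, *Cdh1*, *Krt8*, *Krt18*, *Krt5*, *Krt14*, *Trp63*, *Elf5*) were well above background on all 6 arrays. In RNA from a whole culture, fewer cells of a kind and less RNA per cell cannot be told apart.

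In −LH cells the targeted RNA read lower with either set than with siNEG. The *mPINC* probe read 7.41 and 7.48 log2 signal on the siNEG arrays, 6.27 and 6.39 with siPINC1.0/1.6, and 6.39 and 6.16 with siPINC. The ranges of the siRNA sets overlapped, and both lay below the control. *mPINC* was 2.16-fold lower than in siNEG cells with siPINC1.0/1.6 (limma adjusted p = 0.0366) and 2.24-fold lower with siPINC (limma adjusted p = 0.147, unadjusted p from the same fit = 0.000352). The direct difference, siPINC1.0/1.6 minus siPINC, was 0.06 ± 0.106 (SE) on the log2 scale, with a 95% confidence interval of −0.24 to 0.35 and an unadjusted limma p of 0.63. The sources used here do not say which splice forms this 1 probe detects, so the levels of DCR2 and of the longer forms were not measured apart.

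Over all probes the sets differed little at the strict threshold and more widely at the study's own. At an adjusted p under 0.05 in limma, 10 of 55681 probes (0.018%) differed, 2 higher and 8 lower in siPINC1.0/1.6 cells. At the thresholds of the study's methods, more than 1.8-fold with p under 0.01 before adjustment, 816 probes (1.47%) differed in limma, 414 higher and 402 lower. The study's methods used a t-test, by which 372 probes passed the same thresholds here. In what follows, higher and lower mean past these unadjusted thresholds in limma, unless an adjusted p is given. Differences are siPINC1.0/1.6 minus siPINC in log2 units with their SE. The median difference over all probes was 0.003. Of the 816 probes, 446 (54.7%) were well above background on both arrays of at least one set, and the other 370 compared dim signals. Counting 1 probe for each of 20165 named genes, 211 genes (1.05%) were higher and 179 (0.888%) lower. Among the 12857 of these genes that were well above background on both arrays of a set, 141 (1.1%) were higher and 142 (1.1%) lower. The count at the adjusted threshold depended strongly on the estimate of the spread, being 0 in fits without siNEG and 2479 in 1 fit of all 24 arrays.

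**Figure D1:**
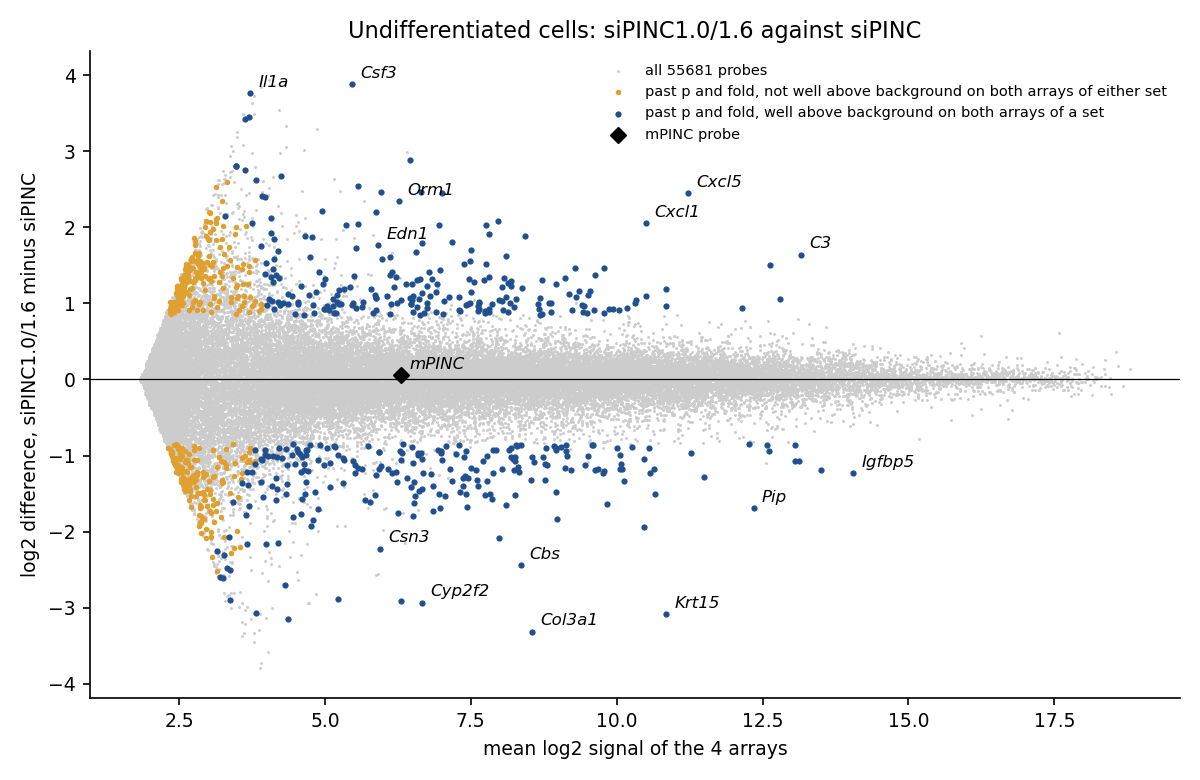
Difference between the sets (y axis, siPINC1.0/1.6 minus siPINC, log2) against the mean log2 signal of the 4 arrays (x axis), 1 point a probe, with probes past the unadjusted thresholds coloured by whether they were well above background on both arrays of a set. The named cytokine points reach 3.88 upward, *Col3a1* reaches −3.32, and *mPINC* lies at 0.06.

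The 10 probes past the adjusted threshold all had an adjusted p of 0.0472 in limma. *Krt15*, a keratin of basal epithelial cells, read 9.28 and 9.32 with siPINC1.0/1.6, 12.38 and 12.39 with siPINC, and 12.48 and 12.65 in siNEG cells. Only the siPINC1.0/1.6 arrays were low, and *Krt15* was 8.48-fold lower there than with siPINC (−3.08 ± 0.0773). *Pip*, prolactin-induced protein, a secretory protein of the mammary gland, read 11.48 and 11.52 with siPINC1.0/1.6, 13.24 and 13.15 with siPINC, and 11.51 and 11.48 in siNEG cells. Here the siPINC arrays stood apart from both other groups, and *Pip* was 3.24-fold lower with siPINC1.0/1.6 (−1.70 ± 0.0602).

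*Pgm5*, a relative of phosphoglucomutase found at cell junctions, read 4.85 and 4.84 with siPINC1.0/1.6 against 7.63 and 7.87 with siPINC and 7.69 and 7.66 in siNEG cells, 7.5-fold lower with siPINC1.0/1.6. *Sardh*, the mitochondrial enzyme that turns sarcosine into glycine, was 3.47-fold lower (5.66 and 5.55 against 7.42 and 7.38). *Atp6v1b1*, a subunit of the vacuolar proton pump, was 3.31-fold lower (6.02 and 5.95 against 7.71 and 7.71). For all of these the siNEG arrays lay near or above the siPINC level. *Vnn3*, a member of the vanin family of pantetheinases, read 5.50 and 5.36 with siPINC1.0/1.6 and was not well above background on any siPINC or siNEG array. Such a difference is a bound, taken as the mean of the bright group over the dim group's mean of the lowest signal well above background on each array or the probe's own signal, whichever was higher. *Vnn3* was thus at least 2.76-fold higher with siPINC1.0/1.6, beside a fitted difference of 3.46. The unnamed probe A_51_P241715 was 3.08-fold higher (8.92 and 8.90 against 7.32 and 7.26). The other 3, probes for *Strc* and *Slc17a2* and the unnamed probe A_51_P150653, had fitted differences of −2.01, −1.41 and −1.96 and were well above background on at most 1 of the 4 arrays, so no fold is given. All 10 kept their direction in every one of the 16 or 17 alternatives in which they could be fitted.

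Chemokines and cytokines, the secreted proteins that recruit and instruct leukocytes, made up the gene list with the most higher members. The list also holds *Nfkbia* and *Tnfaip3*, inhibitors of the factor NF-kappaB inside the cell. Of 30 measured, 13 were higher with siPINC1.0/1.6 and 4 lower, beside 1.05% and 0.888% of all genes, and the median difference was 0.63, beside 0.01 over all genes. The list was chosen with earlier results of these data known, so its count beside these shares is a description and no independent test. The counts of the other lists below stand beside the same shares and under the same limit. *Csf3*, the granulocyte colony-stimulating factor, read 7.60 and 7.20 with siPINC1.0/1.6 and was not well above background on any siPINC (3.94 and 3.09) or siNEG array (3.98 and 3.63). It was at least 10.7-fold higher (fitted difference 3.88 ± 0.355, adjusted p from limma = 0.0728). *Il1a*, an interleukin 1 that cells release on damage, read 6.0 and 5.2 with siPINC1.0/1.6 and 1.84 and 1.83 with siPINC, at least 3.11-fold higher. *Il23a*, the specific subunit of interleukin 23, read 4.86 and 4.89 against 2.09 and 2.04, at least 1.88-fold higher. None of the siNEG arrays was well above background for these 3 cytokines.

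The neutrophil chemokines *Cxcl5* and *Cxcl1* were bright in every group. *Cxcl5* read 12.54 and 12.36 with siPINC1.0/1.6, 10.04 and 9.96 with siPINC, and 9.87 and 9.37 in siNEG cells (difference 2.45 ± 0.194). *Cxcl1* read 11.60 and 11.44, against 9.53 and 9.42 with siPINC and 9.66 and 9.35 in siNEG cells (2.05 ± 0.139). Both siPINC1.0/1.6 arrays lay above all 4 others for each chemokine. *Cxcl2* differed by 2.6 but was well above background on only 1 array, the siPINC1.0/1.6 replicate 1. *Il6*, the interleukin that drives the acute phase response, was higher by 1.17 ± 0.117 (10.27 and 9.98 against 8.94 and 8.97), and *Lif*, a cytokine of the same family, by 1.36 ± 0.147 (6.33 and 6.01 against 4.81 and 4.81). *Ccl2*, the main monocyte chemokine, was higher by 1.93 ± 0.185 (5.22 and 4.87 against 2.94 and 3.29). *Tnf*, *Cxcl16*, *Ccl9* and *Ccl5* were higher by 1.29, 0.92, 0.86 and 0.85. The 4 lower members were *Il33* (−2.08), *Cxcl14* (−1.34), *Cxcl17* (−0.99) and *Cxcl12* (−0.93), the ligand of the chemokine receptor CXCR4. *Cxcl1*, *Cxcl5*, *Il6*, *Ccl2* and the members given by a difference alone were named after their values were seen. The count of higher members was 5 with normexp background correction and 4 with the methods' t-test, and between 9 and 11 with 1 array left out.

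**Figure D2:**
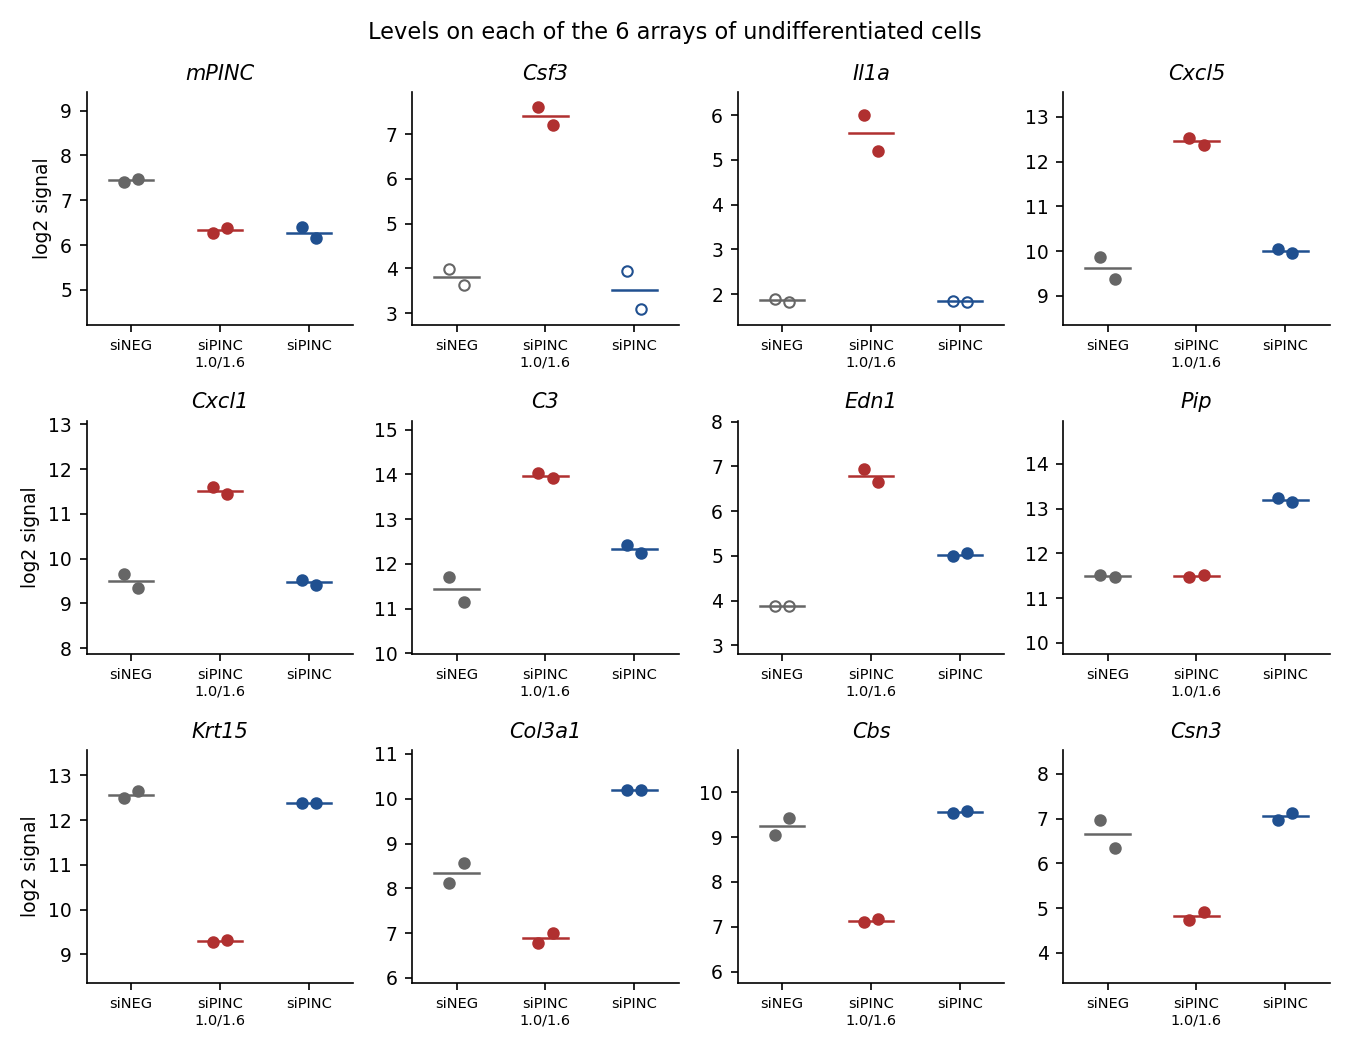
Log2 signal on each of the 6 −LH arrays for *mPINC* and 11 genes named in the text (y axis, panels of equal span), with 1 point an array, open where the probe was not well above background, and a line at the group mean. siPINC1.0/1.6 arrays stand above both other groups for *Csf3*, *Il1a*, *Cxcl5* and *Cxcl1* and below them for *Krt15*, *Col3a1*, *Cbs* and *Csn3*, while for *Pip* the siPINC arrays stand apart.

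Leukocyte markers did not follow the cytokines. The summed linear signal of 5 measured immune markers (*Ptprc*, *Adgre1*, *Itgam*, *Cd3e* and *Csf1r*) was 2780 to 2890 with siPINC1.0/1.6, 3370 to 3480 with siPINC and 3430 to 3480 in siNEG cells. None of the 5 was higher or lower, and 4 were well above background on all 6 arrays. *Ptprc*, which defines leukocytes, was well above background on 1 of the 6 arrays.

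The promoters of *Cxcl1* and *Cxcl2* are shown because these neighbouring genes carry the letters of an NF-kappaB motif, the factor through which interleukin 1 is known to act. The sequences are from RefSeq (build GRCm38.p6, plus strand, 140 to 31 bases before the annotated start), *Cxcl1* at chr5:90891105-90891214 and *Cxcl2* at chr5:90903759-90903868, with matches to the motif on either strand in capitals, the motif being GGG, then 2 letters of any kind, then TTTCC:
Cxcl1: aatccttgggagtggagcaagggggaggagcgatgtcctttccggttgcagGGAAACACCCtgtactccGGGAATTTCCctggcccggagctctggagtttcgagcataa
Cxcl2: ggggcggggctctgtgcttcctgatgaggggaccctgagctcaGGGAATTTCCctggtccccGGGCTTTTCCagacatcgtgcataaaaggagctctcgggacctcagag

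Each of these promoters holds 2 matches. Over the 250 bases before the start, 464 of 32851 promoter windows (1.41%) held the motif, and 10 of the 21 genes of the cytokine list with a promoter entry did, *Nfkbia* and *Tnfaip3* among them. It was 4 of 7 higher members with an entry, 0 of 3 lower ones and 6 of 11 that passed in neither direction. *Cxcl3*, which holds 1 match, differed by 0.08 and was not well above background on any of the 6 arrays. The motif was chosen after the values were seen, and a match is a description of the sequence alone.

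On chromosome 5, *Cxcl1*, *Cxcl2* and *Cxcl5* lie in a stretch that also holds genes of epidermal growth factor receptor ligands. In RefSeq order, the genes with a probe were *Cxcl5*, *Ppbp*, *Pf4*, *Cxcl3*, *Cxcl15*, *Cxcl1*, *Cxcl2*, *Mthfd2l*, *Epgn*, *Ereg*, *Areg* and *Btc*, 12 of the 16 genes annotated there. Of these 12, 7 were higher with siPINC1.0/1.6 and 0 lower, beside 1.05% and 0.888% of all genes. Of the other 5, *Mthfd2l* alone was well above background on both arrays of a set, with a difference of 0.15. The stretch was chosen after the values were seen, and neighbouring genes of 1 family are not independent of each other.

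The growth factors of that stretch belong to a list of 23 genes. These are ligands of the epidermal growth factor receptor and genes of the ERK pathway it signals through. Of the 23, 5 were higher and 0 lower, beside 1.05% and 0.888% of all genes. *Epgn*, epigen, read 9.93 and 9.64 with siPINC1.0/1.6 against 8.36 and 8.54 with siPINC (1.34 ± 0.129). *Ereg*, epiregulin, read 9.93 and 9.75 against 8.75 and 8.77 (1.08 ± 0.0793), and *Areg*, amphiregulin, the ligand needed for duct growth in the mammary gland, 9.51 and 9.24 against 8.47 and 8.26 (1.01 ± 0.13). For all of these the siPINC arrays read near the siNEG arrays, which were at 8.40 and 8.34 for *Epgn*, 8.60 and 8.60 for *Ereg* and 8.41 and 8.43 for *Areg*. *Hbegf*, heparin-binding EGF-like growth factor, was higher by 1.31, and *Fosl1*, a transcription factor of the AP-1 family induced by ERK, by 1.25. The median difference over the list was 0.02, beside 0.01 over all genes, and 18 of the 23 passed in neither direction. The methods' t-test placed 1 of the 5 past the thresholds, and without siPINC replicate 1 it was 3. *Nrg1*, neuregulin, a ligand of related receptors, was higher by 0.92 ± 0.108.

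Some acute phase and innate defence genes were higher. Of 25 measured, 7 were higher and 0 lower, beside 1.05% and 0.888% of all genes. The other 18 did not pass, and the median difference over the list was 0.43. *Orm1* and *Orm2*, the orosomucoids, differed by 2.35 ± 0.116 (7.35 and 7.53 against 5.21 and 4.97) and 2.46 ± 0.342 (7.93 and 7.81 against 5.43 and 5.38). *C3*, the central complement component, read 14.03 and 13.91 with siPINC1.0/1.6, 12.41 and 12.25 with siPINC, and 11.71 and 11.15 in siNEG cells, a 3.12-fold difference. Its other probe differed by 1.5. Both sets were above siNEG for *C3*, siPINC1.0/1.6 by more. *Lcn2*, lipocalin 2, an iron-binding defence protein, was higher by 1.06, and *Chil1*, a chitinase-like protein of luminal progenitors, by 1.09 ± 0.145 (7.42 and 7.28 against 6.38 and 6.12, with 7.19 and 6.94 in siNEG cells). *Stfa1* and *Stfa3*, stefin A protease inhibitors, were higher by 2.04 and 1.31. The count of 7 rested on all 4 arrays, and was 2 without siPINC1.0/1.6 replicate 1, 4 without its replicate 2, and 3 without either siPINC array.

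The calprotectin subunits *S100a8* and *S100a9*, which were not on the list and were named after their values were seen, were higher by 2.45 ± 0.234 and 2.46 ± 0.223. In the *Serpina3* cluster of serine protease inhibitors, 3 of 11 genes were higher and 0 lower, beside 1.05% and 0.888% of all genes. *Serpina3f* read 8.88 and 8.67 with siPINC1.0/1.6, 6.86 and 6.64 with siPINC and 5.05 and 4.83 in siNEG cells, a step of about equal size between groups, and *Serpina3i* differed by 1.8. *Serpina3g*, not well above background on any siPINC or siNEG array, was at least 3.38-fold higher. These genes are near-identical copies, so their probes may read each other's RNA.

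A few interferon-stimulated genes were higher. Of 29 measured, 5 were higher with siPINC1.0/1.6 and 0 lower, beside 1.05% and 0.888% of all genes. The other 24 did not pass, and the median difference over the list was 0.21. Against siNEG, whose arrays both comparisons share, the median was −0.40 for siPINC1.0/1.6 and −0.66 for siPINC. *Oasl1*, an antiviral sensor of the oligoadenylate synthetase family, read 8.80 and 8.77 with siPINC1.0/1.6, 7.53 and 7.49 with siPINC, and 8.39 and 8.43 in siNEG cells (difference 1.27 ± 0.0536). *Xaf1* likewise read 8.79 and 8.63, 7.81 and 7.71, and 8.40 and 8.58 (0.95 ± 0.103). The siPINC arrays were thus the low group for *Oasl1* and *Xaf1*. *Cxcl10*, an interferon-induced chemokine, read 7.07 and 6.77 against 5.34 and 5.27, with 5.98 and 5.40 in siNEG cells (1.61 ± 0.236). *Zbp1*, a sensor of nucleic acids, was higher by 0.93, and *Rsad2*, viperin, was at least 1.42-fold higher. With normexp background correction 1 of the 5 passed the thresholds, and without siPINC1.0/1.6 replicate 1 or siPINC replicate 2 it was 3. None of 17 antigen presentation genes was higher or lower.

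Some collagens and other matrix genes were lower. Of 27 mesenchymal and interstitial matrix genes, 5 were lower with siPINC1.0/1.6 and 1 higher, beside 0.888% and 1.05% of all genes. The count of lower members was 4 to 6 over all alternatives. *Col3a1*, a fibrillar collagen, read 6.78 and 6.99 with siPINC1.0/1.6, 10.20 and 10.20 with siPINC, and 8.13 and 8.57 in siNEG cells. The control lay between the sets, and the direct difference was 9.96-fold (−3.32 ± 0.179, limma adjusted p = 0.0609). *Col1a1*, the main fibrillar collagen chain, read 6.85 and 7.04, 8.24 and 8.29, and 8.75 and 8.71, so that here siPINC was near siNEG (−1.32 ± 0.0848). *Megf6*, a secreted protein with EGF-like repeats, was 4.24-fold lower (6.96 and 6.91 against 9.06 and 8.98, with 10.04 and 10.26 in siNEG cells). *Dcn*, decorin, was at least 1.94-fold lower, and *Col6a1* was lower by 0.86. *Thy1*, the 1 higher member, was not well above background on any of the 6 arrays. The other 21 passed in neither direction. Over the list the median difference was 0.0, beside 0.01 over all genes, and 13 of the 27 differences were above 0.

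Of 7 fibroblast markers, the 2 lower ones were *Col1a1* and *Col3a1* themselves, so the summed linear signal of the list, 320 to 369 with siPINC1.0/1.6, 1610 to 1630 with siPINC and 905 to 967 in siNEG cells, largely restates them. Without both collagens it was 94.9 to 110 with siPINC1.0/1.6, 130 to 140 with siPINC and 169 to 194 in siNEG cells. *Pdgfra*, *Pdgfrb* and both collagens, 4 of the 7 markers, were well above background on all 6 arrays, and *Dpt*, *Lum* and *Thy1* on none. The part of other cells in the collagen difference was not tested. *Col4a5*, a collagen of the basement membrane, was the 1 lower of 20 basement membrane genes (−0.89 ± 0.0702), and 0 were higher.

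Among 14 keratins of basal and stratified epithelia, *Krt15* (above) and *Krt23* were lower and 0 were higher. *Krt23* read 5.15 and 5.61 with siPINC1.0/1.6, 7.18 and 7.08 with siPINC, and 6.68 and 6.49 in siNEG cells (−1.75 ± 0.184). *Krt5* and *Krt14*, the main basal keratins, differed by −0.04 and 0.16, and none of 15 simple keratins and epithelial junction genes passed the thresholds. Of 26 cornified envelope genes, which build the outer layer of stratified epithelia, 3 were higher and 2 lower. *Sprr2h* and *Sprr1b*, small proline-rich proteins, were higher by 1.8 ± 0.0801 (8.14 and 8.01 against 6.24 and 6.31) and 1.38 ± 0.107 (10.43 and 10.21 against 8.88 and 9.01), and *Krtdap* by 1.22. For both *Sprr* genes the siPINC arrays lay within 0.5 of the siNEG mean. The 2 lower genes, *Lce3a* and *Dsg1a*, were well above background on none of the 6 arrays. Of 15 basal and myoepithelial genes, *Mylk*, the myosin light chain kinase, was lower (5.80 and 5.89 against 7.17 and 7.22), as was *Lgr5*, a receptor of Wnt-enhancing R-spondins, which was at least 1.2-fold lower and well above background on neither siPINC1.0/1.6 array. *Nrg1*, given above, was the 1 higher.

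Milk genes differed in only a few members. Of 19 milk protein and lactation genes, *Pip* and *Csn3* were lower with siPINC1.0/1.6 and 0 were higher. *Csn3*, kappa-casein, read 4.74 and 4.91 with siPINC1.0/1.6, 6.98 and 7.13 with siPINC, and 6.96 and 6.35 in siNEG cells, 4.67-fold lower than with siPINC. A second probe for *Csn3* was well above background on none of the 6 arrays. The probes for *Csn1s2b*, a casein, disagreed, the one counted here having a difference near 0 and the other being lower by 1.78 on the log2 scale (3.11 and 2.42 against 4.67 and 4.42), well above background on neither siPINC1.0/1.6 array. *Csn2* and *Wap*, beta-casein and whey acidic protein, which HC11 cells make after hormone treatment, were not well above background on any of the 6 arrays. *Ltf*, lactotransferrin, had a difference of −0.41 ± 0.149, *Cp*, ceruloplasmin, of 0.39 ± 0.101, and *Clu*, clusterin, of 0.27 ± 0.0516, none past the thresholds. Of 23 genes of milk fat and lipid synthesis, the fatty acid transporter *Slc27a6* alone was lower, at least 1.79-fold. *Cidea*, a lipid droplet protein, had a difference of −0.83 ± 0.103 and stayed just under the fold threshold at 1.78-fold.

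Genes with known roles in mammary differentiation, taken from those the study names, showed a graded response in part. *Edn1*, the vasoactive peptide endothelin 1, read 6.94 and 6.65 with siPINC1.0/1.6, 5.0 and 5.06 with siPINC, and was not well above background in siNEG cells (3.89 and 3.89). The sets differed 3.4-fold (1.77 ± 0.116, limma adjusted p = 0.0654). *Wnt4*, a Wnt ligand of luminal cells, read 11.47 and 11.33, 11.03 and 10.96, and 10.08 and 10.22, and *Dlk2*, a Notch-interacting protein, 10.43 and 10.31, 9.96 and 9.87, and 8.87 and 9.05. In each case both sets were above siNEG, siPINC1.0/1.6 by more, but the direct differences of 0.41 ± 0.0893 and 0.46 ± 0.0947 were under the fold threshold. *Itgb3*, an integrin of luminal progenitors, had a difference of −0.80 ± 0.064 (9.95 and 9.95 against 10.81 and 10.70), 1.75-fold. *Ly6a*, *Mal*, *Igfbp2*, *Ednra* and *Mib2* had differences between −0.30 and 0.21 and did not pass.

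Genes of the chromatin complex that *mPINC* associates with and of the cell cycle did not pass these thresholds. None of 11 PRC2 subunits and partners was higher or lower, with a median difference of 0.11, and none of 34 proliferation genes, with a median of 0.15. The median over all genes was 0.01. Small differences above 0 were found for 31 of the 34 proliferation genes, beside 10740 of all 20165 genes. Over members well above background on both arrays of a −LH set, the median +LH difference was 0.42, beside 0.02 over all such genes. Of 10 genes of the RNA interference machinery, which siRNAs use, *Ago4* alone was lower (−0.89 ± 0.0947). *Igfbp5*, a binding protein of insulin-like growth factors and the 1 gene past the thresholds among 11 that flank *mPINC*, read 13.40 and 13.49 with siPINC1.0/1.6, 14.67 and 14.68 with siPINC, and 14.85 and 14.80 in siNEG cells (−1.23 ± 0.0608).

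Enzymes supplied several of the largest lower values. *Cyp2f2*, a cytochrome P450 of xenobiotic metabolism, read 5.0 and 5.41 with siPINC1.0/1.6, 8.13 and 8.15 with siPINC, and 7.93 and 8.29 in siNEG cells, 7.63-fold lower. *Cbs*, cystathionine beta-synthase, which directs homocysteine toward cysteine, read 7.10 and 7.16, 9.55 and 9.59, and 9.06 and 9.44, 5.42-fold lower. For both, siPINC was near siNEG and siPINC1.0/1.6 was the low group. With *Sardh*, *Cbs* made 2 lower and 0 higher of 18 serine, glycine and one-carbon genes. Of 29 xenobiotic and glutathione genes, *Vnn3* and *Akr1c18* were higher and *Cyp2f2* lower. *Akr1c18*, the enzyme that inactivates progesterone, read 10.60 and 10.44 with siPINC1.0/1.6, 9.05 and 9.07 with siPINC, and 7.81 and 7.60 in siNEG cells (1.46 ± 0.105).

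Others of the largest differences rested on dimmer probes. *Prl2c5*, a proliferin, was 7.36-fold higher (8.27 and 7.50 against 4.51 and 5.50), with a second probe at 2.99, although its arrays also differed within each set. *St8sia4*, a polysialyltransferase, was 5.85-fold higher, and *Igf2bp1*, *Mettl7b*, *Aoc1* and *Gpr84* were at least 3.09, 2.61, 2.25 and 2.06-fold higher. *C1s2*, at least 1.89-fold higher by its brighter probe, had a second probe at −0.02 that was well above background on none of the 6 arrays. On the lower side, *Trim65* was at least 5.37-fold, *Krt71* at least 2.7-fold, *Rassf9* at least 2.18-fold, *Ccdc113* at least 1.24-fold and *Defb21* at least 1.03-fold lower. For *Trim65* and *Defb21* the siPINC arrays were the only ones of the 6 well above background.

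**Figure D3:**
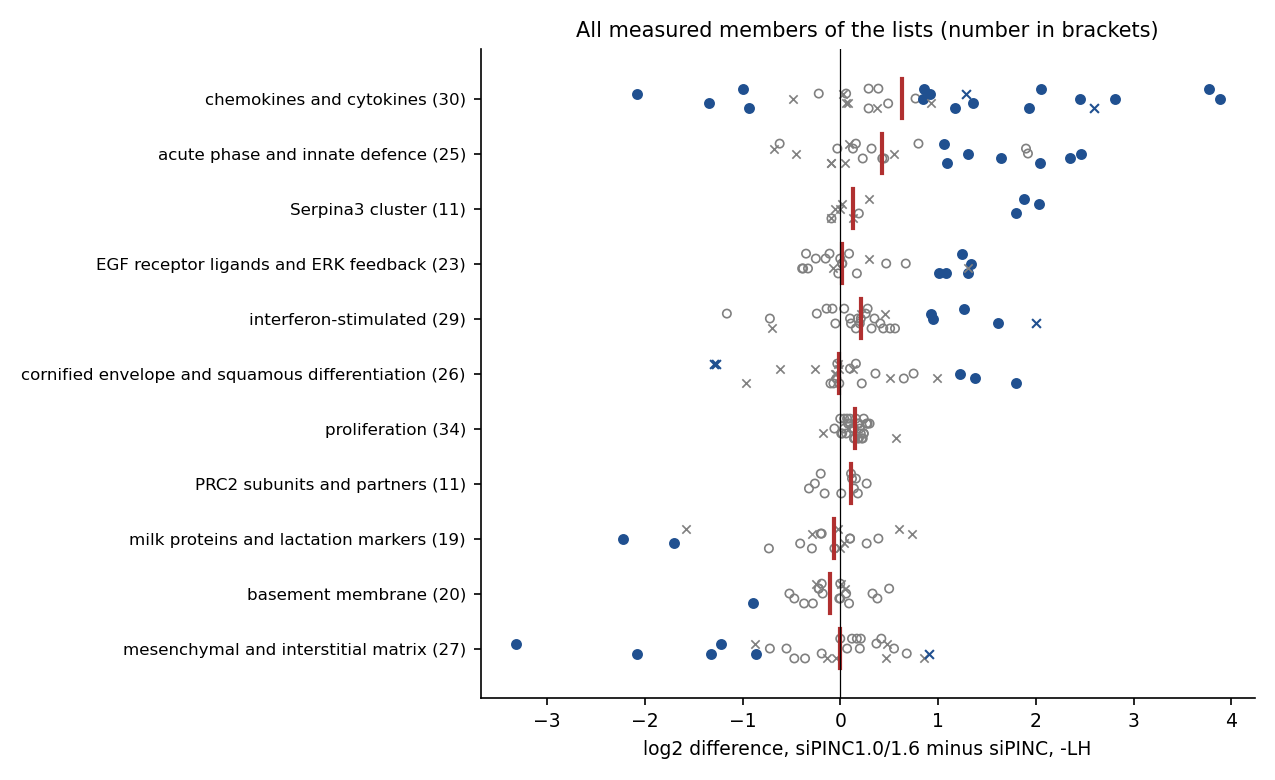
Differences between the sets (x axis, siPINC1.0/1.6 minus siPINC, log2) of all measured members of 11 gene lists, 1 point a gene, with a line at each list's median, blue marks past the unadjusted thresholds, and crosses for genes not well above background on both arrays of either set. The medians of the cytokine (0.63) and acute phase (0.43) lists lie farthest from 0 among the lists shown.

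Outside the named genes, 203 of the 816 probes were designed to intergenic stretches, 102 higher and 101 lower, which is 1.25% of the 16181 such probes. Examples, picked after their values were seen, are a probe in chr11:3521324-3539552 (array design build mm9), at 1.92 and 1.94 with siPINC1.0/1.6, 4.84 and 4.81 with siPINC and 5.01 and 4.67 in siNEG cells, and a probe in chr2:158169020-158191295, at 5.22 and 5.03, 2.92 and 2.52, and 4.80 and 4.04. In the first the siPINC1.0/1.6 arrays were apart from the others, and in the second the siPINC arrays lay lowest.

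For most of these probes the siPINC arrays read nearer to the control than the siPINC1.0/1.6 arrays did. Both comparisons with siNEG share its 2 arrays. Among all 816 differing probes, the siPINC mean was nearer to the siNEG mean in 593 (72.7%), beside 55.6% of all probes, and siNEG lay between the sets in 447. Among the 446 well above background it was 387 (86.8%), beside 69.1% of all 27449 such probes. With 1 array left out, the share was taken anew over the probes then past the thresholds, which were only in part the 816. It was 35.6% and 39.8% without siPINC replicate 1 or 2, and 86.9% and 83.4% without siPINC1.0/1.6 replicate 1 or 2. The share thus depended on the arrays used. In limma, 1650 probes differed between siPINC1.0/1.6 and siNEG at an adjusted p under 0.05 and 0 between siPINC and siNEG. At an unadjusted limma p under 0.05 the counts were 10709 and 5391, and at the study's thresholds 1330 and 554.

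In hormone-treated cells the same sets differed less in the medians of the higher and the lower probes, though some genes differed as much or more. The *mPINC* probe itself read 4.72 to 4.96 with siNEG, 4.83 to 5.25 with siPINC1.0/1.6 and 4.15 to 4.76 with siPINC in +LH cells. It was well above background on 2, 2 and 1 of the 3 arrays of these groups. Lower *mPINC* with siPINC1.0/1.6 than with siNEG was thus not seen in +LH cells, where the probe was dim. Between the 3 siPINC1.0/1.6 and 3 siPINC arrays of +LH cells, which share no array with the −LH groups, 509 probes (0.914%) passed an adjusted p under 0.05 in limma, 246 higher and 263 lower. This count depended on the fit, being 147 to 411 with 1 array left out, 24 without siNEG, 36 by the methods' t-test and 0 with a replicate block, and the +LH adjusted p-values given here hold for the fit of 9 arrays alone. Of the 816 probes that differed in −LH cells, 479 (58.7%) had the same sign in +LH cells, beside 55.1% of all probes. Of the 446 well above background it was 299 (67.0%), beside 59.2% of all such probes. For the 218 higher probes it was 166 (76.1%), with a median difference of 0.425 in +LH and 1.11 in −LH cells. For the 228 lower probes it was 133 (58.3%), with medians of −0.098 and −1.178. The 446 probes were chosen on their −LH values, which by itself favours smaller values elsewhere. The interaction, a change of the difference between the sets from −LH to +LH cells, was fitted on the 15 siRNA arrays. At a limma adjusted p under 0.05 it was called for 861 probes (1.55% of all), among them 174 of the 446. Of these 174, 46 were higher and 128 lower in −LH cells. The −LH difference that chose the 446 is itself part of the interaction, so their count cannot be set against this share. Interaction p-values of genes named for a −LH difference are likewise no independent test. The −LH arrays of both sets lay on 1 slide and the +LH arrays on another, so each difference was taken within a slide, and slide and hormone treatment cannot be told apart. The siNEG +LH replicate 1, which adds to the spread in the fit of 9 arrays, lay on the slide of the −LH arrays. On the 9 +LH arrays, 24021 to 29059 probes were well above background.

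*Krt15*, at 9.28 to 12.65 in −LH cells, read 15.40 to 15.49 with siPINC1.0/1.6 and 15.13 to 15.28 with siPINC in +LH cells, and its interaction was 3.33 (limma adjusted p = 1.9e-06). *Csf3* and *Il1a* were not well above background on any of the 9 +LH arrays, with interactions of −3.39 and −3.77 (limma adjusted p = 0.00165 and 0.00543). *Col3a1* turned to 10.80 to 11.15 with siPINC1.0/1.6 against 10.18 to 10.83 with siPINC, an interaction of 3.90. The difference seen without hormones was thus not there for these genes. *Cyp2f2* and *Csn3* kept a smaller difference in the same direction (−0.95 and −0.99, limma adjusted p = 0.00568 and 0.0115). *Ereg* (1.00), *Cxcl10* (1.07) and *Oasl1* (0.92) were higher with siPINC1.0/1.6 in +LH cells as well (limma adjusted p = 0.0139, 0.0279 and 0.0172). Their interactions of −0.08, −0.54 and −0.36 did not pass the threshold. *Wnt5b* differed by −0.98 in +LH and −0.91 in −LH cells, and *Stfa1* by 3.03 and 2.04 (limma adjusted p in +LH cells = 0.00546 for both). *Stfa1* was well above background on no siPINC array of +LH cells.

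**Figure D4:**
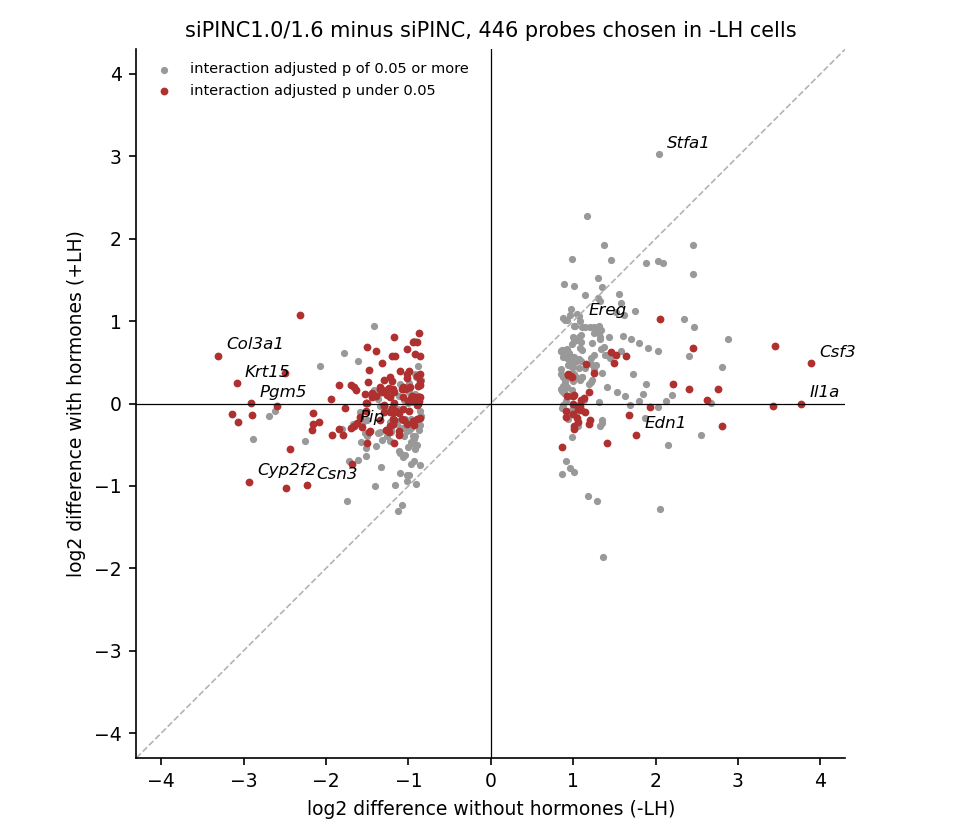
Difference between the sets in +LH cells (y axis) against that in −LH cells (x axis), log2, for the probes past the unadjusted thresholds and well above background in −LH cells, with probes called in the interaction marked. *Krt15* and *Col3a1* lie far left at −3.08 and −3.32 and near or above 0 on the y axis, while *Ereg* lies close to 1 on both axes.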

How the data were processed

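RNA of HC11 cells was hybridised to 24 one-colour Agilent mouse arrays. The authors deposited the intensity of each spot as given by the scanner software, in which the processed signal is background-corrected array by array but carries no scaling between arrays, together with a series matrix of log2 values that the authors had quantile normalized over all 24 arrays. Processed signals of the 59305 non-control spots were log2-transformed and then quantile normalized over the 24 arrays, outlier spots were removed, spots were averaged over 55681 probes, and dim probes were kept. No spot was saturated on any of the 24 arrays. Symbols came from the study's tables (455 probes) or RefSeq accessions (26155 probes), and 29071 probes stayed unnamed. For a gene with several probes, the one in the study's tables or else the brightest over the 6 −LH arrays was used.

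The 6 −LH siRNA arrays were fitted in limma 3.58.1 (R 4.3.3, lmFit and eBayes with default settings), with Benjamini-Hochberg adjustment over all probes. Separate fits covered the 9 +LH arrays and the 15 siRNA arrays (interaction). Summaries used Python 3.11.15 with pandas 2.3.3 and numpy 2.4.6, and figures matplotlib 3.10.9. The fit was tested on simulated data. Genes were named by rule: every probe past the adjusted threshold, the 12 largest differences each way among bright probes without overlap, 19 genes of the study, and up to 4 members of each of 35 gene lists, or the 2 brightest where no member passed. Cell types were checked with 5 marker lists. One item of these lists is not reported here. Members and lists were chosen with earlier results of these data known. The 17 alternatives were other normalizations, background correction, a filter on dim probes, other fits and tests, a replicate block, the series matrix in place of the scanner values, and omission of single arrays. Columns of fold changes and p-values in the study's supplements were not used.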

Additional observations from a re-analysis of the deposited data

Results flagged for a closer look

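The difference between the siRNA sets differed between +LH and −LH cells for 861 probes (1.55% of all) at an adjusted p under 0.05 (limma, interaction). Among them were 37 of the 104 genes named by the rule. Many of these genes were named for a large −LH difference, which is itself part of the interaction. Their count can therefore not be set against the share of all probes. Interactions are +LH minus −LH in log2 units, so a value of the sign opposite to the −LH difference means that the difference was smaller, absent or turned with hormones.

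For genes higher with siPINC1.0/1.6 in −LH cells, the interaction was −2.76 for *Vnn3*, −3.39 for *Csf3*, −3.77 for *Il1a*, −3.45 for *Mettl7b*, −3.08 for *C1s2*, −2.58 for *Gpr84*, −2.58 for *Aoc1*, −2.14 for *Edn1* and −1.05 for *Chil1*. It was −1.06 for *C3*. Their +LH differences lay between −0.38 (*Edn1*) and 0.7 (*Vnn3*). *Vnn3*, *Csf3*, *Il1a*, *Mettl7b*, *Gpr84* and *Aoc1* were well above background only on the siPINC1.0/1.6 arrays of −LH cells among the arrays of both sets, and *C1s2* on no siPINC array of −LH cells, so that their interactions depend on background signals and are no measured sizes.

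For genes lower in −LH cells, the interaction was 3.33 for *Krt15*, 3.9 for *Col3a1*, 2.91 for *Pgm5*, 2.85 for *Rassf9*, 2.57 for *Lgr5*, 2.45 for *Strc*, 1.98 for *Cyp2f2*, 1.88 for *Cbs*, 1.41 for *Sardh*, 1.41 for *Slc17a2*, 1.4 for *Pip* and 1.24 for *Csn3*. Among further list members it was 1.86 for *Megf6*, 1.85 for *Slc27a6*, 1.71 for *Dsg1a*, 1.46 for *Col1a1*, 1.3 for *Dcn*, 1.14 for *Mylk*, 0.97 for *Col4a5*, 0.88 for *Igfbp5* and 0.71 for *Ago4*. The +LH differences of all these genes lay between −0.99 (*Csn3*) and 0.58 (*Col3a1*). *Slc17a2* was well above background on none of the arrays of both sets, so that its value is a difference of background signals. *Strc* and *Dsg1a* were so on at most 2 of these arrays, *Lgr5* on the siPINC arrays of −LH cells alone, and *Rassf9*, *Dcn* and *Slc27a6* on no siPINC1.0/1.6 array of −LH cells, so that these sizes depend on background too.

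The other genes did not pass the thresholds in −LH cells. *Itgb3* had an interaction of 1.15, from −0.80 without to 0.35 with hormones. *Ly6a* (1.01), *Ly6c1* (0.97), *Csn2* (−1.42), *Mal* (−0.64) and *Krt18* (−1.18) had −LH differences of 0.21, 0.05, 0.04, 0.10 and 0.34 and +LH differences of 1.22, 1.02, −1.38, −0.54 and −0.84. *Csn2* was not well above background on any −LH array and was so on all 9 +LH arrays.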

How the results depend on the processing

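In −LH cells the count past the adjusted threshold (10) was 0 with 75th percentile scaling, without siNEG, by the methods' t-test, with the series matrix values and with a replicate block, 93 with quantile normalization within the 6 arrays, 1333 with normexp background correction (offset 50), 1273 with bright probes only, 1609 with a trended and robust prior, and 2479 and 2755 in fits of all 24 arrays without and with the slide. With 1 array left out it was 0 to 154, namely 73 without siPINC1.0/1.6 replicate 1, 154 without siPINC replicate 1 and 0 without any other. The count past the unadjusted thresholds (816) was 163 with normexp, 518 with bright probes, 372 by the t-test, 410 with the series matrix, 852 to 1483 with 1 array left out, and 590 to 945 otherwise (787 with the replicate block). It exceeded 1.5 times the count without siPINC1.0/1.6 replicate 1 (1483) and without siPINC replicate 1 (1328). The share of probes with siPINC nearer to siNEG (72.7%) was taken in each alternative over the probes past the thresholds there. It was 91.4% with normexp, 85.9% with bright probes, 82.9% with the series matrix and 35.6% to 86.9% with 1 array left out.

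In +LH cells the count (509) was 141 with the 75th percentile, 1276 with bright probes, 24 without siNEG, 36 by the t-test, 841 with the trended prior, 1196 and 1423 with all arrays without and with the slide, 0 with the replicate block, 161 with the series matrix and 147 to 411 with 1 array left out. The interaction count (861) was 413, 1318, 1344, 1295 (all arrays with the slide), 533 and 352 with the 75th percentile, bright probes, the trended prior, the slide, the replicate block and the series matrix, and 582 to 1210 with 1 array left out. The cause of these differences was not tested.

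Deviations of same-numbered −LH arrays of the sets from their group means correlated at 0.015 over all probes and 0.093 over bright probes, and those of the siRNA groups of +LH cells at −0.208 to 0.0734 and −0.432 to 0.145, so no pairing was assumed. Of the values of single genes under the alternatives, 1567 stayed on their side of the thresholds, 173 lost and 5 gained the call, and 15 changed sign, all of differences that had not passed. These were *Pinc* (−0.001), *Sqle* (0.063), *Phlda3* (0.001) and *Aldoa* (0.042) with the 75th percentile, which moved the median of all probes to 0.091, *Csn2* (−0.109), *Ldha* (−0.017) and *Ly6c1* (−0.009) with normexp, *Csn2* (−0.43), *Ldha* (−0.013) and *Ly6c1* (−0.009) with the series matrix, and, with 1 array left out, *Pinc* (−0.061 to 0.171), *Wap* (−0.723 to 0.136) and *Ldha* (−0.033 to 0.037). The lone array that is left in a group is taken by limma to have the spread of the others and adds nothing to its estimate. Among dim probes, differences are bounded by background.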

Other observations

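Of the remaining lists, most held few genes that differed between the sets. *Id3*, an inhibitor of basic helix-loop-helix factors, was higher by 0.94 ± 0.18 with siPINC1.0/1.6, the 1 gene past the thresholds among 26 of the TGF-beta and BMP pathway. *Wnt5b* was lower by 0.91 on the log2 scale (7.74 and 7.72 against 8.53 and 8.75), with *Lgr5* the 2 of 30 Wnt pathway genes that passed. *Klk6*, a kallikrein protease, was higher by 1.08, the 1 of 20 glandular kallikreins. *Lif* and *Chil1* were the 2 higher of 12 luminal progenitor genes, *Areg* the 1 of 13 mature luminal genes, *Edn1* the 1 of 7 of the endothelin axis and *Prl2c5* the 1 of 7 proliferins and prolactin relatives. *Igfbp5* was the 1 lower of 13 genes of the IGF axis, and *Hes1* the 1 higher of 22 Notch pathway genes, although well above background on none of the 6 arrays.

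No gene passed in either direction among 21 of cholesterol synthesis, 15 of prolactin and glucocorticoid signalling, 15 p53 targets, 14 of the amino acid and ER stress response, 16 of hypoxia and glycolysis and 13 of the Ly6 family. Their median differences were 0.18, −0.13, −0.05, 0.15, −0.16 and 0.05. None of 6 adipocyte or 5 endothelial markers passed, and 3 of each were well above background on none of the 6 arrays.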
